A study of Raphidocelis subcapitata with 45 samples.

Results

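The response of the green alga Raphidocelis subcapitata to 12249 µg/L sertraline hydrochloride was read from 3 libraries of exposed cells (replicates A, B and C) and 5 libraries of solvent control cells (replicates A to E), 8 of the 41 libraries with values. The members were chosen by the concentration in their labels, not by any measured value. Replicates D and E at 12249 µg/L are labelled but were not analysed here, since no values for them were in the table used. Both groups were whole cells of the strain labelled Carolina Biological, in exponential growth, exposed for 24 h under constant light in shaken deep-well plates. All wells, control wells included, carried solvent, so the groups differed by label only in the drug, and concentrations are nominal. RNA came from homogenates pooled over plates. The protocols describe wells filled from a culture and name no separate cultures, so p-values reflect only how these libraries spread, and that spread may be technical. Another 33 libraries at 50, 125, 314, 784, 1960, 4900 and 30623 µg/L served to estimate the spread and to place the 12249 µg/L group in the series.

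Sertraline is an antidepressant that blocks serotonin reuptake in animals. It is also an amphiphilic amine, a kind of molecule that can enter membranes and collect in acidic compartments of cells that have no serotonin system. R. subcapitata is a standard test organism for toxicity to freshwater algae. The study's title concerns reactive oxygen species, which in green algae arise largely from photosynthetic and respiratory electron transport. Gene groups such as antioxidant enzymes were not analysed here: the table pairs its identifiers with no product names and no annotation was used. Individual genes are therefore named sparingly, 2 with the highest and 2 with the lowest change, and no role is given to them.

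The deposited values are log-transformed normalised expression of 7291 genes, and the base was taken to be 2. A difference of 1 then means a doubling or a halving, and if the base is another one every fold given here changes with it. Values are relative within a library, so that loss of cells and less RNA per cell cannot be told apart and neither would show. Read depth per library is unknown. A gene was called when limma's moderated test gave a Benjamini-Hochberg adjusted p under 0.05 over all 7291 genes, in a model that shared the spread of all 41 libraries.

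At 12249 µg/L, 49.7% of the 7291 genes differed from the control (3623 genes). Rises made up 23.6% of all genes (1719) and falls 26.1% (1904). The spread was larger at 12249 µg/L than in the control. With weights per group, which let the spread differ between groups, 3083 genes were called, 1460 higher and 1623 lower. Which direction had more calls depended on the scaling, since centring each library on its median log2 ratio gave 1869 higher and 1749 lower. The median change over all genes was -0.05 as deposited and 0.01 after centring. Most called changes were smaller than a doubling: the median was 0.99 among the genes that rose and -0.92 among those that fell, with median standard errors of 0.24 and 0.22. The ranges of the 3 treated and 5 control libraries did not overlap for 43.6% of all genes, with the treated libraries above for 20.9% and below for 22.7%. This held for 1416 of the 1719 genes that rose (82.4%) and 1542 of the 1904 that fell (81.0%). The choice of the called genes favours such separation, and among the 3668 genes not called 222 (6.05%) showed it.

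Rises reached further than falls. The strongest rise was 5.20 on the log2 scale (36.8-fold) and the strongest fall was -2.99 (7.95-fold lower). Of all 7291 genes, 22.5% both passed the test and had an estimated change of at least 1, 835 higher and 804 lower. This balance turned when 12249 µg/L replicate C was left out, with 743 higher and 806 lower, and it was more uneven after centring, with 940 higher and 695 lower. At a size of at least 2 there were 217 higher and 94 lower, and at a size of at least 3 there were 53 higher and none lower. Quantile scaling gave 45 higher and 1 lower at a size of at least 3, and leaving out replicate C gave 45 higher and 3 lower. The room for a fall, unlike that for a rise, is limited by how far the control level lies above the lowest values. Control levels had an upper quartile of 5.60 over all genes, and the lowest mean of a gene over all libraries was 2.66. The part of this limit in the balance of large changes was not tested. When limma asked for a change larger than 1 in place of any change, 7.38% of all genes passed, 297 higher and 241 lower.

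The levels behind the large changes are given on a scale of 3′ reads not divided by gene length. The classes were chosen on the difference from the control, so the control level enters the choice and its values are a description. The 217 genes that rose by at least 2 had a median level of 6.78 at 12249 µg/L and 4.13 in the control, where the median over all 7291 genes was 4.58. The 53 that rose by at least 3 had a median level of 7.61 at 12249 µg/L and 3.67 in the control. The 94 genes that fell by at least 2 had a median level of 4.68 at 12249 µg/L and 7.03 in the control. A control mean of at least 50 on the linear scale was found for 42 of the 217 rises and 84 of the 94 falls, against 1778 of all 7291 genes. Among genes whose mean over all libraries was at least 50 there were 57 higher and 63 lower by at least 2. That mean includes the treated libraries, so a rise helps a gene to pass and a fall hinders it, and the 2 counts cannot be compared as a balance.

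**Figure D1:**
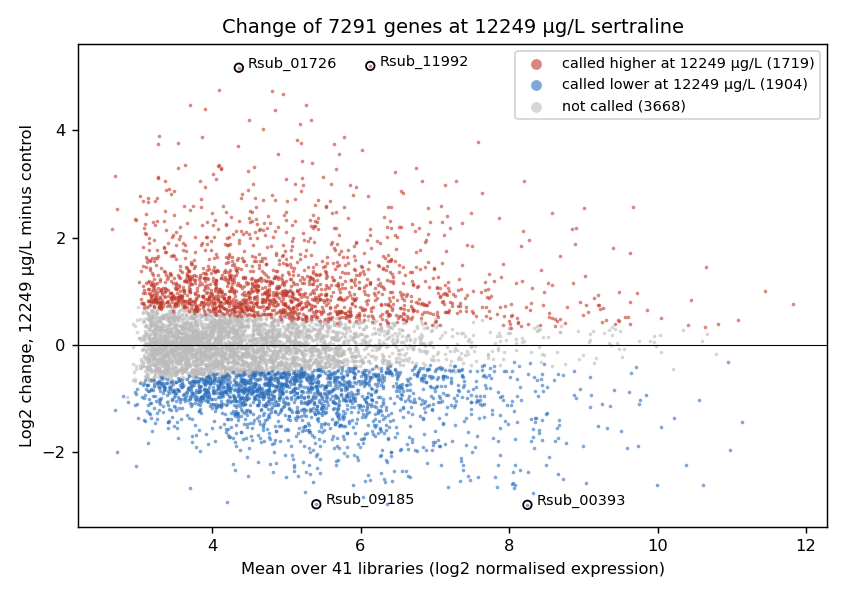
Each point is 1 of 7291 genes, with its mean over 41 libraries on the horizontal axis and its log2 change (12249 µg/L minus control) on the vertical axis; colours give the call at an adjusted p of 0.05. Rises reach 5.20 while falls end at -2.99, and the 4 named genes are circled.

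Calls became more common with expression level, and falls gained on rises. The genes were divided by their mean over all 41 libraries into 5 bins of equal size, and that mean includes the treated libraries. The planned split into 3 gave 474 higher and 318 lower, 574 and 622, and 671 and 964 from low to high expression. In bin 1, the lowest of the 5, 29.95% of 1459 genes were called, 281 higher and 156 lower. Bin 2 had 295 higher and 255 lower. In bin 3 the order turned, with 339 higher and 387 lower, a majority that centring reversed (369 higher and 350 lower). Bin 4 had 369 higher and 491 lower, and bin 5 had 435 higher and 615 lower, so that 72.0% of its 1458 genes were called. The direction of the majority in the 2 lowest and the 2 highest bins was the same after centring, after quantile scaling and with the 2 groups fitted alone. The spread between libraries moved with level as well: the median SD of a gene in bin 1 was 0.39 at 12249 µg/L and 0.32 in the control, against 0.29 at 12249 µg/L and 0.16 in the control for bin 5. The part of this spread in the share called was not tested. Bins 1 and 2 hold the lowest means, 2.66 to 4.25, where a gene has less room to fall. Falls of at least 1 numbered 62 in bin 1 and 302 in bin 5, and rises of that size 154 and 184. The part of the low level in the change of majority was not tested either.

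**Figure D2:**
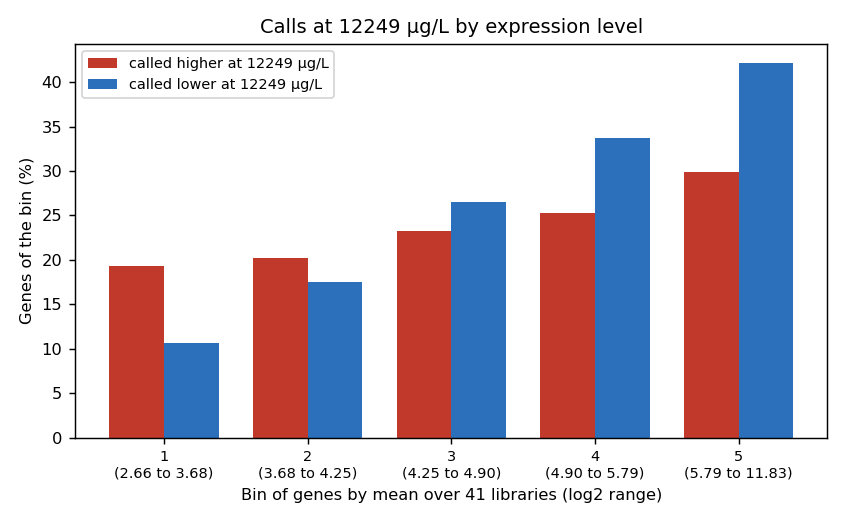
Bars give the percent of genes in each of 5 bins of mean expression that were called higher or lower at 12249 µg/L against the control. Rises were 19.3% in bin 1 and 29.8% in bin 5, and falls were 10.7% in bin 1 and 42.2% in bin 5.

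The named genes were the largest changes in each direction among called genes whose groups did not overlap. Their separation, sizes, intervals and p-values are thus a description of genes chosen on these same values. Rsub_11992 was the gene that rose most. Its log2 normalised expression was 9.42, 9.22 and 10.18 in replicates A, B and C at 12249 µg/L, against 4.16, 4.24, 4.53, 4.28 and 4.80 in control replicates A to E. Every treated library stood far above the control libraries. The log2 change was 5.20 ± 0.24 (SE; 95% interval 4.71 to 5.69), and limma's moderated test gave an adjusted p of 2.86e-25. It was also higher at 12249 than at 4900 µg/L, by 1.52 ± 0.24 (SE, limma adjusted p = 4.08e-06), and higher at 30623 than at 12249 µg/L, by 0.78 ± 0.27 (SE, limma adjusted p = 0.0268). Its mean increased over the 3 highest concentrations, although 1 library at 30623 µg/L (9.57 in replicate C) lay below replicate C at 12249 µg/L. The course before that was not graded. Against the control the change was already 4.02 ± 0.21 (SE) at 1960 µg/L and then 3.69 ± 0.21 (SE) at 4900 µg/L, and these 2 groups were not tested against each other.

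Rsub_01726 had the next largest rise. It stood at 7.77, 7.73 and 8.57 in replicates A, B and C at 12249 µg/L, against 3.02, 2.93, 2.49, 2.66 and 3.18 in control replicates A to E. The lack of overlap was a condition of the choice. The log2 change was 5.17 ± 0.26 (SE; 95% interval 4.64 to 5.70), a 36.0-fold rise with a limma adjusted p of 9.53e-24. The fold rests on a low control mean of 2.86, under the lower quartile of control levels over all genes (3.78). Between 50 and 784 µg/L its change against the control lay between -0.16 and 0.04. It then took the values 2.75 ± 0.23 (SE) at 1960 µg/L and 3.98 ± 0.23 (SE) at 4900 µg/L. The 12249 µg/L group was above the 4900 µg/L group by 1.19 ± 0.26 (SE, limma adjusted p = 0.000603). Between 30623 and 12249 µg/L the difference was -0.54 ± 0.30 (SE), which did not pass the test (limma adjusted p = 0.165).

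Rsub_00393 fell most. It stood at 6.22, 6.20 and 6.37 in replicates A, B and C at 12249 µg/L, against 9.32, 9.53, 9.32, 9.53 and 8.56 in control replicates A to E. All treated libraries lay within 0.17 of each other and below every control library. The log2 change was -2.99 ± 0.33 (SE; 95% interval -3.65 to -2.34), with a limma adjusted p of 2.41e-11. Set against the 125 µg/L group it was -2.34, where the libraries averaged 8.60 ± 0.64 (SD, n = 5). The gene did not follow the concentration step by step: its change against the control was -1.80 ± 0.28 (SE, limma adjusted p = 4.92e-05) at 314, -1.99 ± 0.28 (SE, limma adjusted p = 1.23e-06) at 784 and 0.61 ± 0.28 (SE, limma adjusted p = 0.116) at 1960 µg/L. The fall of 12249 against 1960 µg/L was therefore deeper, at -3.60 ± 0.33 (SE, limma adjusted p = 1.41e-13), and that against 4900 µg/L was -2.30 ± 0.33 (SE, limma adjusted p = 3.41e-07). At 4900 µg/L the libraries ran from 6.80 to 9.86, so the tightly grouped values at 12249 µg/L lay below a group that spread over most of the gene's range. The SD was 1.28 at 4900 µg/L (n = 5) and 0.09 at 12249 µg/L (n = 3). The SE and p against 4900 µg/L use the spread shared over all groups and do not measure the wider spread of that group.

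Rsub_09185 followed another course. It stood at 3.47, 4.11 and 3.73 in replicates A, B and C at 12249 µg/L, against 6.74, 6.98, 6.55, 7.02 and 6.45 in control replicates A to E. Here too the lack of overlap was a condition of the choice. The log2 change was -2.98 ± 0.23 (SE; 95% interval -3.44 to -2.52), a 7.89-fold fall with a limma adjusted p of 1.08e-16. Its change against the control was -0.57 ± 0.20 (SE) at 314 µg/L, which did not pass the test (limma adjusted p = 0.303). The later values were -1.34 ± 0.20 (SE) for 784 µg/L, -2.51 ± 0.20 (SE) for 1960 µg/L and -3.16 ± 0.20 (SE) for 4900 µg/L, all past the threshold. The 12249 and 4900 µg/L groups differed by 0.18 ± 0.23 (SE), which did not pass the test (limma adjusted p = 0.633). At 30623 µg/L the gene was higher than at 12249 µg/L by 0.69 ± 0.26 (SE, limma adjusted p = 0.0376).

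**Figure D3:**
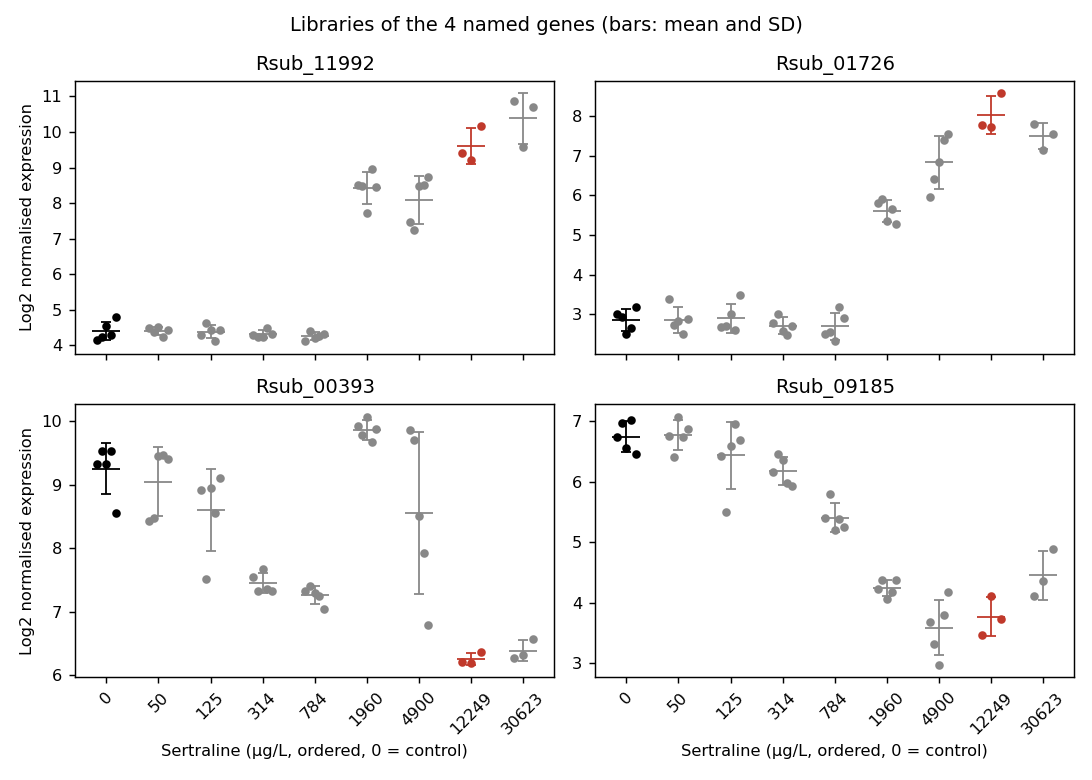
Points are single libraries of the 4 named genes on the log2 scale, by ordered concentration (0 is the control, in black; 12249 µg/L in red), with the group mean and SD. Rsub_11992 and Rsub_01726 leave the control level at 1960 µg/L, Rsub_00393 is low at 314 and 784 µg/L, near or above the control at 1960 µg/L and low again at 12249 µg/L, and Rsub_09185 falls between 314 and 4900 µg/L.

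The 3 treated libraries were not equally far from the control. Over the 1719 genes that rose, the median difference from the control mean was 0.91 in replicate A, 0.96 in B and 1.26 in C. Over the 1904 that fell it was -0.92 in A, -0.93 in B and -1.05 in C. Replicate C was the highest of the 3 for 1029 of the genes that rose (59.9%) and the lowest of the 3 for 823 of the genes that fell (43.2%). Without replicate C, 1410 genes rose and 1635 fell.

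Each treated library was also read with genes chosen without it and against other reference libraries, the 5 at 50 µg/L. Of the 1654 genes that rose in the fit without replicate A, 1563 (94.5%) were above the 50 µg/L mean in A, with a median difference of 0.87. Of the 1599 that rose without B, 94.8% were above that mean in B, with a median of 0.92, and of the 1410 that rose without C, 94.3% were above it in C, with a median of 1.24. For the genes that fell, the shares below the mean were 93.3% in A, 93.6% in B and 95.5% in C. Over all 7291 genes, between 47.5% and 48.3% lay above the 50 µg/L mean in these libraries.

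A position between other groups of the series placed the libraries on a common line. On a line from the mean of the 125 µg/L libraries (0) to that of the 30623 µg/L libraries (1), which holds neither group compared here, the treated libraries stood at 0.65 (A), 0.73 (B) and 0.91 (C), against -0.01 to 0.05 in the control. On a second line, set by the mean at 50 µg/L (0) and that at 4900 µg/L (1), they stood at 1.20 (A), 1.17 (B) and 1.18 (C), against 0.00 to 0.05 in the control. Replicate C thus lay nearer to the 30623 µg/L end of the first line than A and B. On the second line all 3 lay close together and slightly past the 4900 µg/L mean. The single 4900 µg/L libraries ran from 0.80 to 1.17 there, a range that took in replicate B. The mean of the 30623 µg/L libraries on that line was 0.94, so it does not order the highest concentrations. The 100 highest genes of a library held 25.7% (A), 24.8% (B) and 27.5% (C) of the summed back-transformed values at 12249 µg/L, against 23.5% to 24.5% in the control. In all, 5 library measures were tried on these data, the other 2 being the interquartile range of log2 expression (1.91 ± 0.059 at 12249 µg/L and 1.85 ± 0.050 in the control; SD, n = 3 and 5) and the number of genes at 50 or more on the linear scale (1843 ± 29.3 at 12249 µg/L and 1803 ± 28.5 in the control; SD, n = 3 and 5). The libraries were compared in a two-sided exact permutation test whose p is the doubled smaller tail. In this exact permutation test the top-100 share and both positions had p = 0.0357, the smallest this form of the test allows. Their adjusted p from the same exact permutation test was 0.0595 over the 5 measures. The interquartile range had p = 0.214 and the gene number p = 0.143 in the same exact permutation test. None of the 5 thus passed the correction with the doubled tail, and another form of two-sided p was not tested. In the top-100 share and both positions every treated library lay above every control library.

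**Figure D4:**
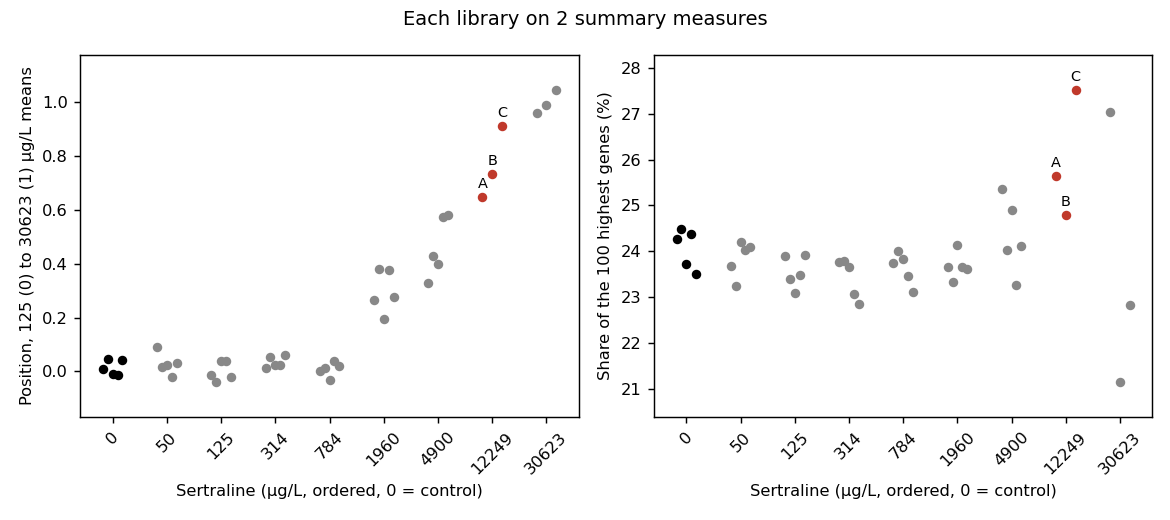
Points are single libraries by ordered concentration (0 is the control, in black; 12249 µg/L in red with replicate letters). Left, the position on the line between the 125 and 30623 µg/L means, where those 2 groups define the line; right, the percent of the summed back-transformed values in the 100 highest genes, where replicate C stands highest at 27.5%.

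Many of these called genes were called in the same direction in a contrast of other libraries. In the fit, those libraries entered the first call through the shared estimate of the spread. Whether they also entered through the normalisation or transform of the deposited values is unknown. The contrast of 4900 with 50 µg/L shares no library with that of 12249 µg/L and control, and in it 33.4% of all genes were called, 14.6% higher and 18.8% lower. Of the 1719 genes that rose at 12249 µg/L, 839 (48.8%) were higher there and 12 (0.698%) lower, and these 839 were 79.0% of all genes higher in that contrast. Of the 1904 that fell, 1052 (55.3%) were lower and 12 (0.630%) higher, and the 1052 were 76.6% of all genes lower there. The median change in that contrast was 0.50 for the genes that rose at 12249 µg/L and -0.52 for those that fell. Among the 3668 genes without a call, 211 (5.75%) were higher and 309 (8.42%) lower.

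The next higher concentration gave a like picture, with more calls than the contrast of 4900 with 50 µg/L. The contrast of 30623 with 125 µg/L called 52.8% of all genes, with 25.2% higher and 27.6% lower. Whether it called more genes than 12249 µg/L against the control depended on the fit. The counts were 3849 and 3623 in the main fit, 3447 and 3511 with the 2 groups fitted alone, and 2747 and 3083 with weights per group. Of the genes that rose at 12249 µg/L, 1060 (61.7%) were higher in it and 53 (3.08%) lower, and these 1060 were 57.8% of all genes higher there. Of those that fell, 1296 (68.1%) were lower and 16 (0.840%) higher, and the 1296 were 64.3% of all genes lower there. Among the 3668 uncalled genes, 758 (20.7%) were higher and 666 (18.2%) lower.

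The strongest changes were called in these other libraries most often. All 53 genes that rose by at least 3 at 12249 µg/L were higher in both contrasts, with median changes of 2.28 for 4900 against 50 µg/L and 3.02 for 30623 against 125 µg/L. Of the 217 that rose by at least 2, 201 were higher in the first and 211 in the second contrast. Of the 94 that fell by at least 2, 84 were lower in the first and 90 in the second contrast, and none of them was called higher in either.

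Against the control itself, the strong rises and the strong falls were followed over the concentrations. The 217 genes that rose by at least 2 at 12249 µg/L had a median change of 0.02 at 784 µg/L, 0.70 at 1960 µg/L, 1.59 at 4900 µg/L, 2.48 at 12249 µg/L and 2.02 at 30623 µg/L. At 784 µg/L, where the calls took in 0.741% (higher) and 2.18% (lower) of all genes, 2 of them were called higher and 3 lower. At 30623 µg/L, against a background of 25.8% higher, 212 of them were higher. The 94 genes that fell by at least 2 had a median of -0.24 at 314 µg/L, -0.32 at 784 µg/L, -0.83 at 1960 µg/L, -1.77 at 4900 µg/L, -2.36 at 12249 µg/L and -2.05 at 30623 µg/L. At 314 µg/L, with a background of 0.699% lower and 0.0274% higher, 26 of the 94 were already lower. At 784 µg/L 36 of them were lower, and at 1960 µg/L, with a background of 12.3% lower and 9.82% higher, 63 were lower and 6 higher. At 30623 µg/L, against a background of 28.1% lower, 93 were lower. These comparisons share the control libraries, and the difference in course between the sets was not tested.

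**Figure D5:**
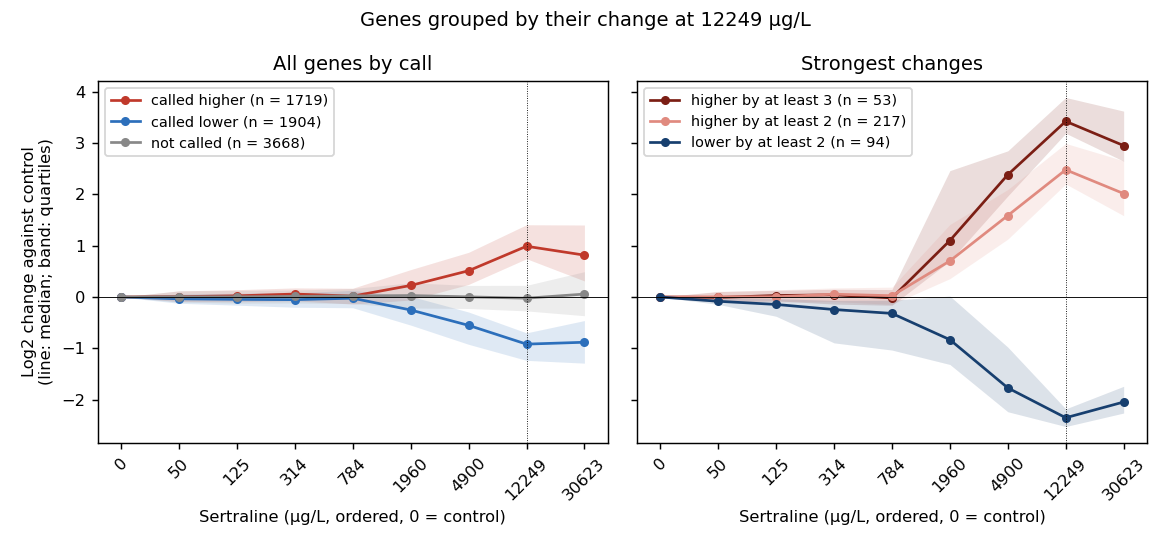
Lines give the median and bands the quartiles of the log2 change against the control at each ordered concentration, for genes grouped by their call (left) or by the size of their change (right) at 12249 µg/L, marked by the dotted line. The 217 genes that rose by at least 2 are flat to 784 µg/L with a median of 0.02, while the 94 that fell by at least 2 have a median of -0.32 there and a wide lower quartile.

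For many called genes 12249 µg/L was the first concentration of an unbroken run of calls against the control. The background of calls at 1960 µg/L is given above, and that at 4900 µg/L was 14.9% higher and 18.8% lower. Of the 1719 genes that rose, 856 (49.8%) were called higher from 12249 µg/L, 514 (29.9%) from 4900 µg/L, 342 (19.9%) from 1960 µg/L and 7 from 784 µg/L. Of the 1904 that fell, 799 (42.0%) were called lower from 12249 µg/L, 580 (30.5%) from 4900 µg/L, 468 (24.6%) from 1960 µg/L, 38 from 784 and 19 from 314 µg/L. The median change at 12249 µg/L, among genes that rose, was 1.08 for the 7 with a start at 784, 1.49 for 1960, 1.21 for 4900 and 0.82 for 12249 µg/L. Among those that fell it was -1.77 for a start at 314, -1.26 for 784, -1.11 for 1960, -1.03 for 4900 and -0.76 for 12249 µg/L. A call in the opposite direction at 1960 µg/L was found for 76 of the genes that rose and 65 of those that fell. Calls before a gap do not count in these runs. With or without a gap, 408 of the genes that rose were called higher at 1960 µg/L, and 590 of those that fell were called lower. A missed call does not show that a gene was unchanged. Larger changes pass the threshold more easily, so the medians by start are a description.

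Direct contrasts with the neighbouring concentrations asked which of these genes still differed there. Between 12249 and 4900 µg/L the test called 21.4% of all genes, 11.7% as higher and 9.67% as lower. There 728 of the 1719 genes that rose were higher at 12249 µg/L and 4 lower. Of the 1904 that fell, 582 were lower and 12 higher. Without replicate C of 12249 µg/L the 728 became 344 and the 582 became 337. They were 270 and 114 with the 2 groups fitted alone, 394 and 282 with weights per group, 433 and 328 at an adjusted p of 0.01, and 328 and 357 among genes with a mean of 50 or more. Between 30623 and 12249 µg/L 28.7% of all genes were called, with 12.9% higher at 30623 µg/L and 15.7% lower. There 500 of the genes that rose at 12249 µg/L were lower at 30623 µg/L and 113 higher. Of those that fell, 327 were higher at 30623 µg/L and 212 lower. The 12249 µg/L libraries enter both the choice of genes and these contrasts, which favours both a difference from 4900 µg/L and a return at 30623 µg/L.

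The counts between 30623 and 12249 µg/L depended on the fit. For the genes that rose, the 500 lower and 113 higher were 80 and 21 with the 2 groups fitted alone, 152 and 5 with weights per group, and 284 and 22 at an adjusted p of 0.01. They were 286 and 10 among genes with a mean of 50 or more, and the 113 were 179 under quantile scaling and 49 without the lowest tercile of genes by expression. For the genes that fell, the 327 higher and 212 lower were 24 and 2 with the 2 groups alone and 125 and 91 at an adjusted p of 0.01. The majority turned to 28 higher and 53 lower with weights per group, and to 69 higher and 236 lower among genes with a mean of 50 or more.

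The same counts also rested on single libraries. At 30623 µg/L the median log2 level of a library was 4.61 (A), 4.73 (C) and 4.70 (D), against 4.56 (A), 4.57 (B) and 4.59 (C) at 12249 µg/L. Under quantile scaling, which gives all libraries the same distribution, the 500 and 113 were 356 and 179, and the 327 and 212 were 270 and 160. Centring each library on its median log2 ratio gave 556 and 129, and 282 and 212. Beyond these scalings, the part of this shift in the counts was not tested. The 500 genes that stood lower became 763, 310 and 305 without replicate A, C or D of the highest concentration. The 113 that stood higher became 39, 48 and 67 without replicate A, B or C of 12249 µg/L, and 46 and 47 without C or D of 30623 µg/L. The 327 became 168 without replicate A of 12249 µg/L and 186 and 170 without C or D of 30623 µg/L. The 212 became 118 and 134 without A or B of 12249 µg/L, and 123 without D of 30623 µg/L.

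Genes without a call were mostly bounded at a doubling but not at smaller sizes. Of the 3668 genes not called at 12249 µg/L, 3134 (85.4%) had a 95% interval of the log2 change within -1 and 1. For 350 (9.54%) it lay within -0.5 and 0.5, and the median distance from the estimate to the end of its interval was 0.50 over the uncalled genes. Without replicate A or B of 12249 µg/L the 350 became 147 and 170. The 12249 µg/L libraries spread more than the control libraries, with a median SD per gene of 0.34 (n = 3) at 12249 µg/L and 0.24 (n = 5) in the control, and the SD was larger at 12249 µg/L for 67.3% of genes.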

How the data were processed

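The authors deposited a table of log-transformed normalised expression, treated here as log2 values, with 7291 genes in 41 of 45 labelled libraries made with a 3′ mRNA kit with molecular identifiers. Per the submitters' processing notes, the tools include STAR 2.7.10a, featureCounts 2.0.6, DESeq2, fastp 0.23.2, SAMtools 1.15.1 and bcl2fastq 2.20.0. For their order and settings, the transform, the genome build and the handling of molecular identifiers, the details were not given in the sources used here. A transform that pulls weakly measured genes towards their mean would understate their changes. Identifiers run to 13433, so the table holds part of the numbered genes. It holds no read counts, so depth is unknown and no count model was used.

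The functions lmFit, contrasts.fit and eBayes (trend on) of limma 3.58.1, run under R 4.3.3, fitted 1 mean for each of the groups over all 41 libraries, leaving 32 residual degrees of freedom beside 24.4 from the prior. There was no filter, pseudocount or covariate. Tests were two-sided, with Benjamini-Hochberg adjustment over 7291 genes and a threshold of 0.05; treat used a bound of 1. The named genes are the 2 highest and 2 lowest log2 changes among called genes whose groups did not overlap. The members, gene groups and tests were chosen with earlier results of these data known. The split into 5 expression bins, the 5 library measures and the size classes were added after the data had been examined. The script was tested on simulated data. Alternatives covered the libraries fitted, scaling, expression filters, the variance model, the replicate letter as a block, the threshold, the reference libraries and each library left out. Plots used matplotlib 3.10.9 (Python 3.11.15).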

Additional observations from a re-analysis of the deposited data

Results flagged for a closer look

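Among 31 groups of 5 values examined, 2 held a library far from the other 4, where chance gives about 1.55. Control replicate E had a log2 normalised expression of 8.56 for Rsub_00393, against 9.32 to 9.53 in the other control libraries; it lies nearest to the 12249 µg/L values, and without it the fall at 12249 µg/L was -3.17. For Rsub_11992, the value of 4.49 in replicate D of 314 µg/L stood above the other 4 libraries of that group, which lay between 4.24 and 4.31.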

How the results depend on the processing

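The 4 named genes kept their direction and an adjusted p of at most 2.55e-07 (limma) in every alternative run; Rsub_01726 and Rsub_09185 have means under 50 and were not in the fit with that filter. With each library left out in turn, counts at 12249 µg/L against the control ran from 3045 to 3494 for all calls, 1410 to 1656 for rises, 1635 to 1854 for falls, 1549 to 1852 for changes of at least 1, 444 to 516 for changes tested against 1 and 147 to 277 for genes bounded within 0.5. The ranges were 2103 to 2563 for 4900 against 50, 3430 to 3839 for 30623 against 125, 792 to 1760 for 12249 against 4900 and 1153 to 2944 for 30623 against 12249 µg/L. Restricting the fit to a mean of 50 or more, where fewer genes are tested, left 1240 calls at 12249 µg/L against the control, 513 higher and 727 lower, 558 of at least 1, 284 tested against 1 and 194 bounded within 0.5; the other contrasts had 880 (4900 against 50), 1283 (30623 against 125), 780 (12249 against 4900) and 850 (30623 against 12249 µg/L). The contrasts of neighbours moved by over 1.5 times under more settings than that filter: for 12249 against 4900 and 30623 against 12249 µg/L there were 417 and 211 calls with the 2 groups alone, 753 and 410 with weights per group, and 907 and 1120 at an adjusted p of 0.01. Without the intensity trend there were 1470 and 2007, and with robust variance estimates 1551 and 2077. The cause of the drop with weights was not tested. Genes bounded within 0.5 numbered 193 with weights per group and 702 with the control, 50 and 125 µg/L libraries as the reference; 3573 were bounded within 1.

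Same-lettered libraries at 12249 µg/L and in the control did not deviate together (correlations of 0.01, 0.03 and 0.00 for A, B and C), and 1 of the 3 treated libraries correlated best with its own letter. With the replicate letter as a block, 3644 genes were called at 12249 µg/L, 1723 higher and 1921 lower, and no count of calls moved by over 1.5 times. Depth is unknown, so what it limits could not be assessed.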
